A study of Mus musculus with 8 samples.

Results

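Skeletal muscle RNA was read here for the mitochondrial carriers of the SLC25 family, which were taken as the genes whose symbol in the deposited table begins with Slc25a and a number. The table lists 40 such genes, and Slc25a20 was left out, so that 39 of 15433 listed genes are described. All 39 passed the filter on low values. RNA-Seq had been done on gastrocnemius (GST) muscle of 6-month-old female mice, with 4 WT mice, which were C57BL/6 mice matched for age and sex, and 4 STIM1+/D84G mice, which the sample labels call SAX. STIM1+/D84G mice carry the D84G exchange on 1 allele of Stim1 in every cell, not only in muscle fibers. The exchange lies in the EF hand with which STIM1, the calcium sensor of the sarcoplasmic reticulum, reads the calcium store. Which carriers differed in transcript level between these genotypes was the question. GST muscle is a bulk sample, in which fewer cells of a type and less RNA per cell cannot be told apart.

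SLC25 proteins are built of repeated pairs of membrane helices, and most sit in the inner mitochondrial membrane. They exchange nucleotides, phosphate, carboxylates, amino acids and cofactors between cytosol and matrix, since these solutes cannot cross that membrane unaided. In muscle fibers the best known is the adenine nucleotide translocator, which sends ATP out of the matrix in exchange for ADP. Several carriers bind calcium on the outer face of the inner membrane and are regulated by it.

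The promoters of 3 carriers are printed because the results turn on these genes. Slc25a12, an aspartate/glutamate carrier that muscle makes in large amounts, was lower in STIM1+/D84G muscle under the deposited scaling and did not pass the test when every library was given the same total (total-count scaling). Slc25a5 and Slc25a24, which carry adenine nucleotides, were higher under every scaling tried. Each line holds the 250 bases before the transcription start that RefSeq gives (GRCm38.p6), 5′ to 3′ on the strand of the gene, and capitals mark the motif matches described after the lines.
Slc25a12, chr2:71367756-71368005, minus strand: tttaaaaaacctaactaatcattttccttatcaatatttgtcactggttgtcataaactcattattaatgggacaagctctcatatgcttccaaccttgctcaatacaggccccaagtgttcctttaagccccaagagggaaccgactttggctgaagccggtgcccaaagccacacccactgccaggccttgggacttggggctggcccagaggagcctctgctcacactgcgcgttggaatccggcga
Slc25a5, chrX:36795347-36795596, plus strand: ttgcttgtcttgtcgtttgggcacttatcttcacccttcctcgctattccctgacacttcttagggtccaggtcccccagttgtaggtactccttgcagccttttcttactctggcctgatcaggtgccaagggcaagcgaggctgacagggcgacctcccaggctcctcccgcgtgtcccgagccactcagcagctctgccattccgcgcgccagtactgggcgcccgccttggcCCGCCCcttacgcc
Slc25a24, chr3:109122899-109123148, plus strand: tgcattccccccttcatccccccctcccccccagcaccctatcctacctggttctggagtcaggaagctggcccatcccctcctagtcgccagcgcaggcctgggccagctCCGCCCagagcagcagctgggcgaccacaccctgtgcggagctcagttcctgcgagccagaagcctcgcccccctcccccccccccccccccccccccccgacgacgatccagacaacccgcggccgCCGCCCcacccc

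In these windows, 7 motifs were searched on both strands. They were the NRF1 motif, the site AAGGTCA of estrogen-related receptors, the cAMP response element TGACGTCA, the MEF2 motif, the CCAAT box, the TATA box TATAAA and the GC box GGGCGG. Slc25a24 holds 2 GC boxes, the nearer at bases 12 to 7 before the start, and Slc25a5 holds 1, at bases 14 to 9, all on the other strand and none overlapping another match. These positions count from the RefSeq start. GENCODE begins Slc25a5 further downstream, at chrX:36795651. A stretch just after its RefSeq start was not found in its GENCODE transcripts, whereas those of Slc25a12 and Slc25a24 were found. The Slc25a12 window holds none of the 7 motifs. The window of Slc25a4 is not shown, since the GENCODE annotation of mm10 places most of it inside the first exon. G and C make up 72.8% of the Slc25a24 window, 61.6% of that of Slc25a5 and 49.6% of that of Slc25a12. By symbol, 30 of the 39 carriers matched the RefSeq table, with 39 windows. CCAAT boxes were in 51.3% of the carrier windows and in 33.9% of all 32851 windows of that length, and GC boxes in 74.4% and 32.7%. The carrier windows also held more G and C, with a median of 58.0% against 52.4%. The NRF1 motif was in 1 carrier window and in 3.74% of all windows. Such matches are stretches of letters and do not show that a factor binds.

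The table holds the reads of each gene after division by a size factor, 1 for each library, called normalized counts here, with no scaling by gene length. The WT libraries held 28698738 to 33661535 reads in listed genes and the STIM1+/D84G libraries 27481177 to 35018732, so that 1 read was worth between 0.783 and 1.21 normalized counts. The muscle transcripts Ckm, the creatine kinase of muscle, and Acta1, skeletal actin, averaged 851832 and 1211070.0 normalized counts in WT, and the macrophage and fibroblast markers described further on were far lower. A number in the column names, whose meaning is not stated, sets WT libraries 1 and 2 and STIM1+/D84G library 1 apart from the other 5.

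Of the 39 carriers, 18 (46.2%) were lower and 6 (15.4%) were higher in STIM1+/D84G muscle, against 24.4% lower and 25.0% higher among all 15433 genes. With total-count scaling 0 carriers were lower and 21 (53.8%) higher, against 4.93% lower and 61.4% higher among all genes, so that the rises were no more frequent among the carriers than over the table. The test was limma (trended variance, log2 scale, 0.1 added to each normalized count), and a call needed a Benjamini-Hochberg adjusted p under 0.05 over the whole table. The 15 remaining carriers did not pass, so that 24 (61.5%) changed, against 49.4% of all genes. In 15 carriers (38.5%) all 4 STIM1+/D84G values lay below all 4 WT values, against 23.0% of all genes, and in 5 (12.8%) they all lay above, against 23.0% of all genes. The groups were thus apart in 20 of 39 carriers, and in 46.0% of all genes. Changes were mostly small, with a median of -0.12 on the log2 scale over the carriers and 0.013 over all genes. In absolute size the median change was 0.29 for the carriers and 0.28 for all genes.

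**Figure D1:**
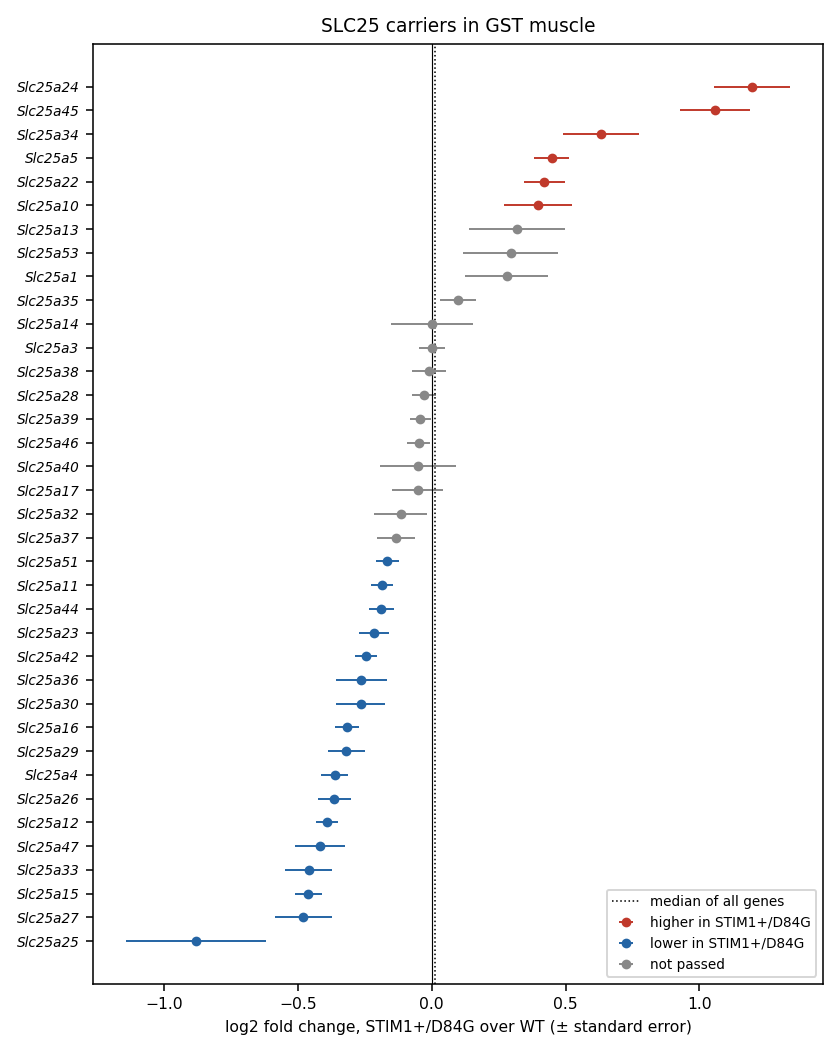
The horizontal axis gives the log2 fold change of STIM1+/D84G over WT (n = 4 each) for 37 of the 39 carriers with its standard error from limma, and colors give the call at an adjusted p of 0.05 (Slc25a18, with no read in 3 WT libraries, is not drawn). Under the deposited scaling 17 of the carriers drawn lie on the lower side, down to -0.88 for Slc25a25, and 6 on the higher side, up to 1.20 for Slc25a24, whereas with total-count scaling 0 of the 39 carriers were lower and 21 higher, against 61.4% of all genes higher.

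The calls are given by level, with no test between the levels. Of the 10 carriers with a mean over 1000 normalized counts, 7 were lower and 0 higher (limma; 0 also at an unadjusted p of 0.05, and by edgeR and DESeq2). Of the 23 between 100 and 1000, 11 were lower and 5 higher, and of the 6 under 100, 1 was higher. Over all listed genes the shares were 54.5% lower and 16.7% higher above 1000, 25.2% lower and 26.0% higher between 100 and 1000, and 4.11% lower and 29.0% higher under 100. These shares are those of the deposited scaling. For total-count scaling they were not split by level, and over all genes 61.4% were higher and 4.93% lower. With total-count scaling 6 of the 10 carriers over 1000 were higher and 0 lower (limma; 0 also at an unadjusted p of 0.05), and 3 of the 6 under 100 were higher.

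How the libraries are scaled sets the sign of the smaller falls. Under the deposited size factors the normalized counts summed to between 33536636 and 34589111 per WT library but to between 26080391 and 27436601 per STIM1+/D84G library. Scaling to this total moved the median over all genes from 0.013 to 0.36 (log2 fold change) and that over the carriers from -0.12 to 0.23. Scaling a whole library shifts every gene nearly alike, so the carriers lay 0.13 below the median gene either way by construction. With quantile normalization, which does not shift all genes alike, they lay 0.061 below it. Of the 18 lower carriers, 9 stayed below 0 under all 5 other scalings and 9 turned positive with total-count scaling, where 4 of those passed the test as higher. The 6 higher carriers stayed above 0 under all 5. The directions given in what follows are those of the deposited scaling. Its size factors gave the same medians as median-of-ratios factors computed anew, a method that places the typical gene near 0. A median gene that hardly moved is thus built into this scaling and does not favor it.

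Summed over the 39 carriers, normalized counts were 149322, 147213, 154746 and 155830.0 in the WT libraries and 122662, 123370.0, 124078 and 122050.0 in the STIM1+/D84G libraries. Each STIM1+/D84G sum was below each WT sum, and the ratio of the means was 0.811. As a share of all listed counts, which amounts to total-count scaling, the carriers held 0.445% ± 0.0153 in WT against 0.460% ± 0.00966 in STIM1+/D84G muscle (SD, n = 4 each), and the shares overlapped. Of the carrier counts, Slc25a4 alone held 59.4% ± 0.996 in WT against 57.0% ± 0.359 in STIM1+/D84G muscle (SD, n = 4 each), with no overlap. Without it the sums had a ratio of 0.860, again with no overlap. The 5 most abundant carriers, Slc25a4, Slc25a12, Slc25a3, Slc25a11 and Slc25a25, held 88.3% of the carrier counts in WT and 86.6% in STIM1+/D84G muscle.

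**Figure D2:**
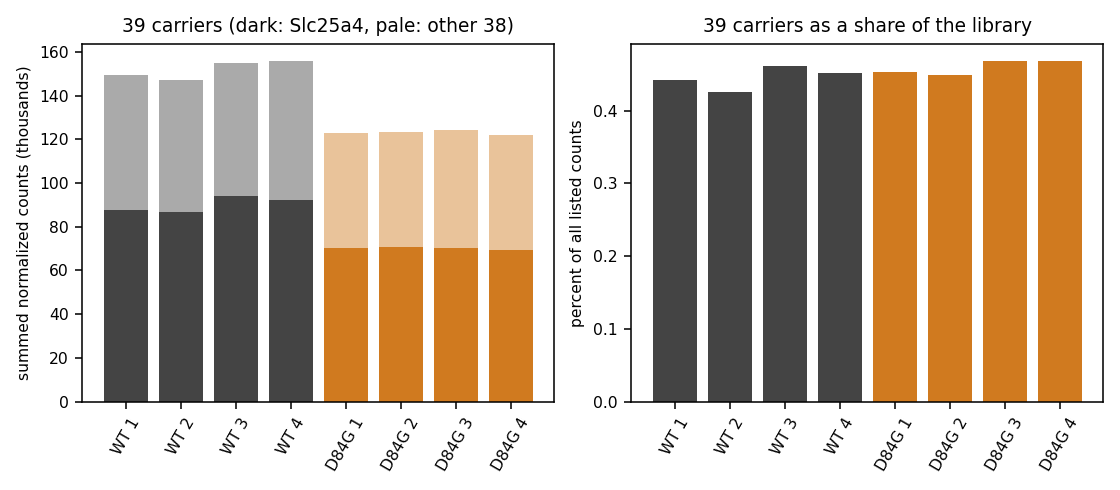
Bars give, for each library, the summed normalized counts of the carriers (left, with Slc25a4 dark and the other 38 pale) and that sum as a percent of all listed counts (right). All 4 STIM1+/D84G sums, from 122050.0 to 124078, are below the WT sums, from 147213 to 155830.0, while the shares overlap between 0.426% and 0.468%.

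Of the carriers that serve ATP synthesis most directly, both adenine nucleotide translocators changed, in opposite directions, and the phosphate carrier did not pass the test. Slc25a4 (chr8:46206797-46211284, minus strand, mm10) encodes ANT1, the translocator of heart and skeletal muscle, and had 87532, 86874, 94217 and 92346 normalized counts in the WT libraries and 70420.1, 70514, 70224 and 69355 in the STIM1+/D84G libraries. The groups did not overlap, and the STIM1+/D84G libraries lay closer together than the WT libraries. Its log2 fold change was -0.36 ± 0.051 (limma, adjusted p = 1.59e-04), a mean lower by 22.3%. With total-count scaling the log2 fold change was -0.014 (limma, adjusted p = 0.811), and the share of all listed counts was 0.265% ± 0.0127 in WT against 0.262% ± 0.00417 in STIM1+/D84G muscle (SD, n = 4 each).

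Slc25a5 (chrX:36795651-36798807, plus strand) encodes ANT2, the translocator of many other tissues and of dividing cells. It had 249, 236, 266 and 247 normalized counts in the WT libraries and 335, 323, 365 and 337 in the STIM1+/D84G libraries. Every STIM1+/D84G library was above every WT library, with a log2 fold change of 0.45 ± 0.065 (limma, adjusted p = 1.96e-04). The count of Slc25a5 is uncertain, since 33.8% of the 50-base stretches of its annotated transcripts recur in 9 other genes, all of them pseudogenes. For Slc25a4 that share was 0%. Cell cycle markers rose as well (3 of 3 listed, Mki67 and Top2a among them), with a summed level of 29.7 to 131 across WT libraries and 166 to 202 across STIM1+/D84G libraries, and their part in the rise of Slc25a5 was not tested.

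Slc25a3, the carrier of the phosphate that ATP synthase consumes, had 14640.1, 14152, 15086 and 15873 normalized counts in the WT libraries and 14253, 14513, 15208 and 15759 in the STIM1+/D84G libraries. The groups overlapped almost wholly, with a log2 fold change of -2.51e-04 ± 0.049 (limma, adjusted p = 0.997), but it was higher with quantile normalization (0.25, limma, adjusted p = 0.00135) and with total-count scaling (0.35, limma, adjusted p = 2.52e-04). Per kilobase of annotated exon, which lets levels of different genes be compared, WT muscle had 38352 normalized counts of Slc25a4, 2975 of Slc25a11, 2691 of Slc25a3, 2279.6 of Slc25a12, 737 of Slc25a25 and 152 of Slc25a5. The muscle translocator stood far above every other carrier on this scale, which uses the union of all annotated exons.

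**Figure D3:**
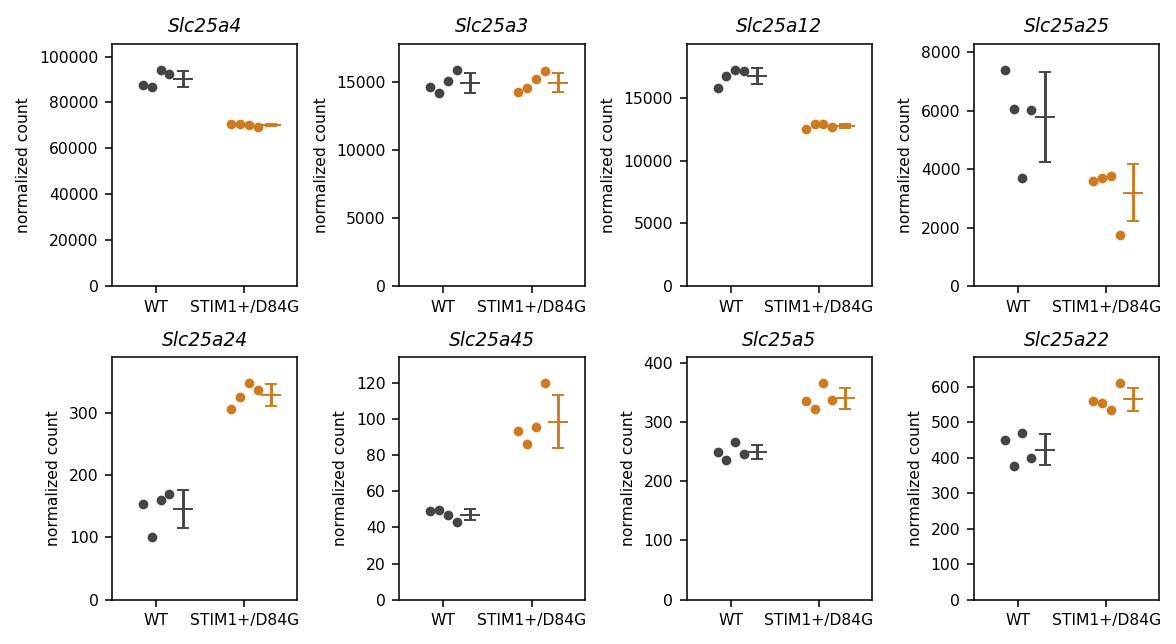
Normalized counts (vertical axes, each from 0) of 8 carriers are shown for each library as points, with the mean and SD (n = 4) beside them. Under the deposited scaling the groups are apart for Slc25a4 and Slc25a12 (lower in STIM1+/D84G) and for Slc25a24, Slc25a45, Slc25a5 and Slc25a22 (higher), while Slc25a3 and Slc25a25 overlap, and with total-count scaling Slc25a4 and Slc25a12 no longer passed the test.

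The carriers that exchange ATP-Mg for phosphate have calcium-binding EF hands and set the size of the adenine nucleotide pool in the matrix. Of the 3 listed members, Slc25a24 rose and Slc25a25 and Slc25a23 fell, and with total-count scaling Slc25a25 no longer passed and Slc25a23 turned to a rise. Slc25a24 (chr3:109123149-109168457, plus strand) had 153, 101, 160.5 and 169 normalized counts in the WT libraries and 306, 325, 347 and 336 in the STIM1+/D84G libraries. The groups were far apart, and its log2 fold change of 1.20 ± 0.14 (limma, adjusted p = 4.80e-05) was the largest rise among the carriers that passed. It kept its call under all 21 alternatives, with log2 fold changes from 1.03 to 1.55. All 11 listed macrophage markers rose too, Cd68 and Lyz2 among them, with a summed level of 2738 to 3389 across WT libraries and 7134 to 12386 across STIM1+/D84G libraries, and so did all 6 fibroblast markers, such as Col3a1 and Postn, with a summed level of 22546 to 32773 across WT libraries and 45361 to 55077 across STIM1+/D84G libraries. Whether these cells add to the rise of Slc25a24 was not tested.

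Slc25a25 (chr2:32414487-32451445, minus strand), the muscle-rich member of the group, had 7399, 6059, 3687 and 6023 normalized counts in the WT libraries and 3598, 3689, 3779 and 1729 in the STIM1+/D84G libraries. The STIM1+/D84G values lay mostly below the WT values but overlapped them at WT library 3, and STIM1+/D84G library 4 stood below all others. The log2 fold change was -0.88 ± 0.26 (limma, adjusted p = 0.0161), the largest fall and also the one with the largest standard error among the called carriers. Without STIM1+/D84G library 4 it was -0.61 (limma, adjusted p = 0.0243), and over all 8 fits that left out 1 library the adjusted p ranged from 0.00354 to 0.0458. With total-count scaling it was -0.53 (limma, adjusted p = 0.0856).

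Slc25a23 had 763, 758, 756 and 694 normalized counts in the WT libraries and 625, 697, 618 and 617 in the STIM1+/D84G libraries. Only STIM1+/D84G library 2 and WT library 4 crossed, and the log2 fold change was -0.22 ± 0.056 (limma, adjusted p = 0.00767), against 0.13 (limma, adjusted p = 0.0499) with total-count scaling.

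Among the carriers of aspartate, glutamate and di- and tricarboxylates, 2 of 7 listed members fell and 2 rose, and with total-count scaling 5 were higher, Slc25a1, Slc25a10, Slc25a11, Slc25a13 and Slc25a22, while Slc25a12 did not pass. Slc25a12 (chr2:71271063-71367749, minus strand) encodes aralar, which passes aspartate out of the matrix for glutamate, binds calcium and drives the malate-aspartate shuttle that brings the electrons of cytosolic NADH into mitochondria. It had 15832, 16719, 17244 and 17151 normalized counts in the WT libraries and 12554, 12933, 12891 and 12658 in the STIM1+/D84G libraries. The groups lay well apart, with a log2 fold change of -0.39 ± 0.040 (limma, adjusted p = 1.71e-05), which became -0.042 (limma, adjusted p = 0.367) with total-count scaling. Slc25a13, its relative citrin of liver, was scarce and had normalized counts of 24.0, 26.5, 30.4 and 32.7 in WT and 37.5, 32.1, 41.5 and 30.8 in STIM1+/D84G muscle. Its groups overlapped, with a log2 fold change of 0.32 ± 0.18 (limma, adjusted p = 0.163), but it was higher with total-count scaling (0.67, limma, adjusted p = 0.00707).

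Slc25a11 exchanges 2-oxoglutarate for malate in the same shuttle. It had 6261, 6155, 6455 and 6360.1 normalized counts in the WT libraries and 5550.0, 5289, 5491 and 5867 in the STIM1+/D84G libraries, which did not overlap. The log2 fold change was -0.19 ± 0.040 (limma, adjusted p = 0.00277), but 0.0061 (limma, adjusted p = 0.920) with quantile normalization and 0.16 (limma, adjusted p = 0.0120) with total-count scaling. Of its 50-base stretches, 6.38% are shared with Rnf167.

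Slc25a22, a glutamate carrier, had 448, 375, 469 and 398 normalized counts in the WT libraries and 559, 553, 535 and 609 in the STIM1+/D84G libraries. The groups were apart, with a log2 fold change of 0.42 ± 0.077 (limma, adjusted p = 9.54e-04). Slc25a18, the other glutamate carrier, was near the limit of detection, with 0, 0, 10 and 0 reads in WT and 5, 4, 1 and 6 reads in STIM1+/D84G libraries, and it did not pass (limma, adjusted p = 0.117). Without WT library 3 it passed (limma, adjusted p = 0.00828), and no fold is given since 3 WT libraries held no read.

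Slc25a10, the dicarboxylate carrier, had 154, 128, 107 and 105 normalized counts in the WT libraries and 151, 157, 157 and 181 in the STIM1+/D84G libraries. The groups overlapped through WT library 1, and the log2 fold change was 0.40 ± 0.13 (limma, adjusted p = 0.0227). It lost its call with quantile normalization (limma, adjusted p = 0.210), without WT library 3 (adjusted p = 0.0573), without WT library 4 (0.0612) and without STIM1+/D84G library 4 (0.0693).

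Slc25a1, the citrate carrier that supplies cytosolic acetyl-CoA for fatty acid synthesis, had normalized counts of 149, 139, 93.2 and 101 in WT and 141, 132, 135 and 167 in STIM1+/D84G muscle. WT libraries 1 and 2 lay within the range of the STIM1+/D84G libraries and WT libraries 3 and 4 below it, the same split as the number in the column names. It did not pass (limma, log2 fold change 0.28 ± 0.15, adjusted p = 0.159), but passed with that number as a term (limma, adjusted p = 0.0466) and with total-count scaling (log2 fold change 0.63, limma, adjusted p = 0.00494). Of 5 adipocyte markers 1 rose, and their summed levels were in the range of 905 to 2276 across WT libraries and 1312 to 2282 across STIM1+/D84G libraries.

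Among the carriers of other amino acids, 3 of 4 listed fell and 0 rose (limma; 0 also at an unadjusted p of 0.05, and by edgeR and DESeq2), and with total-count scaling Slc25a44 and Slc25a38 were higher and Slc25a29 turned above 0. Slc25a15, the ornithine carrier of the urea cycle, had 539, 521, 526 and 535 normalized counts in the WT libraries and 413, 382, 374 and 373 in the STIM1+/D84G libraries. These groups were wide apart for their spread, with a log2 fold change of -0.46 ± 0.052 (limma, adjusted p = 3.50e-05) and of -0.11 (limma, adjusted p = 0.0775) with total-count scaling. Slc25a29, a carrier of basic amino acids, fell from 264 ± 16.9 to 211 ± 10.2 normalized counts, and Slc25a44, a carrier of branched-chain amino acids, from 1177 ± 28.0 to 1034 ± 49.3 (SD, n = 4 each). Neither pair of groups overlapped. Slc25a38, which brings in glycine for heme synthesis, averaged 373 ± 15.1 in WT and 370.3 ± 25.4 in STIM1+/D84G muscle (SD, n = 4) and did not pass as deposited.

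Of the 9 listed carriers of nucleotides and cofactors 7 fell and 0 rose (limma; 0 also at an unadjusted p of 0.05, and by edgeR and DESeq2), although with total-count scaling 4 of these 7 turned above 0, and Slc25a51 and Slc25a17 passed as higher. Slc25a33, a carrier of pyrimidine nucleotides, had 565, 483, 579 and 485 normalized counts in the WT libraries and 354, 352, 436 and 396 in the STIM1+/D84G libraries, with no overlap. Its log2 fold change was -0.46 ± 0.088 (limma, adjusted p = 0.00131), against -0.11 (limma, adjusted p = 0.347) with total-count scaling. Of its 50-base stretches, 12.6% recur in the gene Gm13068. Slc25a36, its nearest relative, had normalized counts of 646, 564, 565 and 751 in WT and 472, 575, 508 and 540.1 in STIM1+/D84G muscle. Those groups overlapped, with a log2 fold change of -0.26 ± 0.096 (limma, adjusted p = 0.0399), and the call was lost in 7 of 21 alternatives. By limma, with the adjusted p in brackets, it was lost without WT library 1 (0.0821), WT library 4 (0.0948), STIM1+/D84G library 1 (0.104), 3 (0.0890) or 4 (0.0611). It was also lost with total-count scaling (0.443) and with scaling to the total without the 50 most abundant genes (0.231).

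Slc25a26 carries S-adenosylmethionine, the methyl donor, into the matrix and had 523, 518, 516 and 526 normalized counts in the WT libraries and 417, 443, 388 and 374 in the STIM1+/D84G libraries. Slc25a16, linked to the supply of coenzyme A, had normalized counts of 1091, 1011, 1145 and 1081 in WT and 881, 856, 872 and 863 in STIM1+/D84G muscle. Neither overlapped between the groups, and their log2 fold changes were -0.36 ± 0.060 and -0.32 ± 0.046 (limma, adjusted p = 4.81e-04 and 2.03e-04). Both calls were lost with total-count scaling, at -0.014 and 0.033 (limma, adjusted p = 0.823 and 0.596). Slc25a42, which carries coenzyme A, fell from 1409 ± 47.5 to 1189 ± 31.2, and Slc25a51, the NAD carrier, from 2216 ± 101 to 1974 ± 38.8 (SD, n = 4 each), both without overlap. With total-count scaling the log2 fold change of Slc25a51 was 0.18 (limma, adjusted p = 0.00619). Slc25a32, a carrier of folate and FAD, and Slc25a17, which sits in peroxisomes, did not pass, with log2 fold changes of -0.12 ± 0.098 and -0.052 ± 0.095, against 0.23 and 0.30 with total-count scaling.

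The 4 carriers of iron and glutathione were 0 higher and 0 lower (limma; 0 also at an unadjusted p of 0.05, and by edgeR and DESeq2). Slc25a37 and Slc25a28 are the mitoferrins, which bring iron in for heme and iron-sulfur clusters. Slc25a37 had normalized counts of 794, 794, 798 and 876 in WT and 818, 779, 649 and 735 in STIM1+/D84G muscle. For Slc25a28 the libraries held normalized counts of 701, 728, 693 and 749 in WT and 727, 689, 715 and 683 in STIM1+/D84G muscle. Slc25a39 and Slc25a40 bring in glutathione, the main thiol that guards against oxidation. Slc25a39 had normalized counts of 1249.7, 1240.2, 1265 and 1213 in WT and 1204, 1157, 1228 and 1233 in STIM1+/D84G muscle. For Slc25a40 the libraries held normalized counts of 76.6, 122, 87.8 and 91.1 in WT and 96.1, 80.7, 89.7 and 93.4 in STIM1+/D84G muscle. In all 4 the groups overlapped. Their log2 fold changes were -0.13 ± 0.071, -0.029 ± 0.046, -0.043 ± 0.039 and -0.050 ± 0.14, but with total-count scaling Slc25a37, Slc25a28 and Slc25a39 were higher (0.21, 0.32 and 0.31).

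Of the relatives of the uncoupling proteins, Slc25a27 and Slc25a30 fell and Slc25a14 did not pass, and with total-count scaling Slc25a30 turned above 0. Slc25a27 had 309, 342, 351 and 384 normalized counts in the WT libraries and 287, 272, 230.4 and 209.7 in the STIM1+/D84G libraries, without overlap. The log2 fold change was -0.48 ± 0.11 (limma, adjusted p = 0.00316), and -0.13 (limma, adjusted p = 0.256) with total-count scaling. Slc25a30 had normalized counts of 145, 147, 131 and 129 in WT and 106, 109.7, 125 and 119 in STIM1+/D84G muscle, again without overlap, with a log2 fold change of -0.27 ± 0.093 (limma, adjusted p = 0.0339). It lost its call in 10 of 21 alternatives, with adjusted p of 0.101 by DESeq2, 0.0679 with the replicate number as a block, 0.0503 with the column-name number as a term and, by limma, 0.0787, 0.0849, 0.0858, 0.0823 and 0.0508 without WT libraries 1 or 2 or STIM1+/D84G libraries 1, 2 or 4. Slc25a14 had normalized counts of 42.3, 45.8, 49.9 and 40.9 in WT and 51.9, 37.6, 49.2 and 41.4 in STIM1+/D84G muscle.

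Of the 6 carriers whose substrates are less well known, 2 rose and 1 fell, whereas with total-count scaling 5 were higher and 0 lower (limma; 0 also at an unadjusted p of 0.05), Slc25a35, Slc25a46 and Slc25a53 among them (0.45, 0.30 and 0.64 on the log2 scale). Slc25a45 had 49.2, 49.4, 46.6 and 43.0 normalized counts in the WT libraries and 93.2, 86.2, 95.4 and 119.8 in the STIM1+/D84G libraries. The groups were apart, with a log2 fold change of 1.06 ± 0.13 (limma, adjusted p = 6.19e-05), and the call held under all 21 alternatives. Slc25a34 had normalized counts of 354, 357, 539 and 410.4 in WT and 527, 588, 701 and 742 in STIM1+/D84G muscle, which overlapped only through WT library 3. Its log2 fold change was 0.63 ± 0.14 (limma, adjusted p = 0.00351), and this call held under all 21 alternatives as well. Its relative Slc25a35 had normalized counts of 164, 160.3, 158 and 163 in WT and 177, 169, 174 and 170.0 in STIM1+/D84G muscle. All STIM1+/D84G values were above the WT values, yet the step was small and did not pass as deposited (limma, log2 fold change 0.097 ± 0.067, adjusted p = 0.259), and 25.1% of its 50-base stretches recur in 6 other genes.

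Slc25a47, described as a liver carrier, had 123, 127, 119 and 124 normalized counts in the WT libraries and 99.9, 94.8, 93.5 and 81.9 in the STIM1+/D84G libraries, with no overlap and a log2 fold change of -0.42 ± 0.093 (limma, adjusted p = 0.00344). It lies head to head with Slc25a29, at chr12:108836046-108856815 on the plus strand against chr12:108825873-108835883 on the minus strand of mm10, with 162 bases between the annotated genes. Both fell, and both lost their call with total-count scaling. Slc25a46, which sits in the outer membrane, averaged 1449.9 ± 56.0 in WT and 1401 ± 51.3 in STIM1+/D84G muscle (SD, n = 4 each) and did not pass as deposited. Slc25a53 averaged 39.5 ± 8.63 in WT and 47.7 ± 3.60 in STIM1+/D84G muscle (SD, n = 4 each) and did not pass either.

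Ratios of related carriers were compared within each library, since such a ratio does not depend on a factor applied to the whole library. Quantile normalization can change such ratios, and they were not recomputed under it. Its log2 fold changes were -0.16 for Slc25a4 and 0.36 for Slc25a5, and -0.16 for Slc25a12 and -0.057 for Slc25a13. For Slc25a24 and Slc25a25 they were 1.06 and -0.72. In each of these pairs the 2 carriers lay closer together than as deposited. Of 10 pairs, none passed after adjustment over the pairs (exact two-sided permutation test of 70 assignments). With 4 libraries against 4 the smallest p is 0.0286, and the 3 pairs that reached it had an adjusted p of 0.0952. The ratio of the translocators Slc25a4 to Slc25a5 fell in all 4 STIM1+/D84G libraries below every WT library, from 8.50 ± 0.04 in WT to 7.69 ± 0.08 in STIM1+/D84G muscle (log2 ratio, SD, n = 4). Slc25a4 still made up 99.5% of the counts of the pair in STIM1+/D84G muscle, against 99.7% in WT. The ratio of the aspartate/glutamate carriers Slc25a12 to Slc25a13 went from 9.21 ± 0.15 in WT to 8.50 ± 0.20 in STIM1+/D84G muscle (log2 ratio, SD, n = 4), and that of the calcium-regulated carriers Slc25a24 to Slc25a25 from -5.29 ± 0.60 in WT to -3.22 ± 0.57 in STIM1+/D84G muscle (log2 ratio, SD, n = 4). Both moved without overlap.

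The other pairs overlapped. The difference in log2 ratio was 0.66 for Slc25a23 to Slc25a25 (exact permutation p = 0.114), 0.54 for Slc25a34 to Slc25a35 (exact permutation p = 0.0571), 0.27 for Slc25a14 to Slc25a30 (exact permutation p = 0.114) and -0.20 for Slc25a33 to Slc25a36 (exact permutation p = 0.257). For the mitoferrins Slc25a28 to Slc25a37 it was 0.11 (exact permutation p = 0.143), and for the glutathione carriers Slc25a39 to Slc25a40 0.007 (exact permutation p = 1.0). The ratio of Slc25a22 to Slc25a18 rests on libraries without a read and is not given. Compared by replicate number, a test added after seeing the data, 5 of the 9 ratios moved the same way in all 4 same-numbered pairs of libraries. They were the 3 without overlap and, upward, Slc25a34 to Slc25a35 and Slc25a14 to Slc25a30. Each of the 5 had an exact two-sided sign-flip p of 0.125, the smallest that 4 pairs allow.

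**Figure D4:**
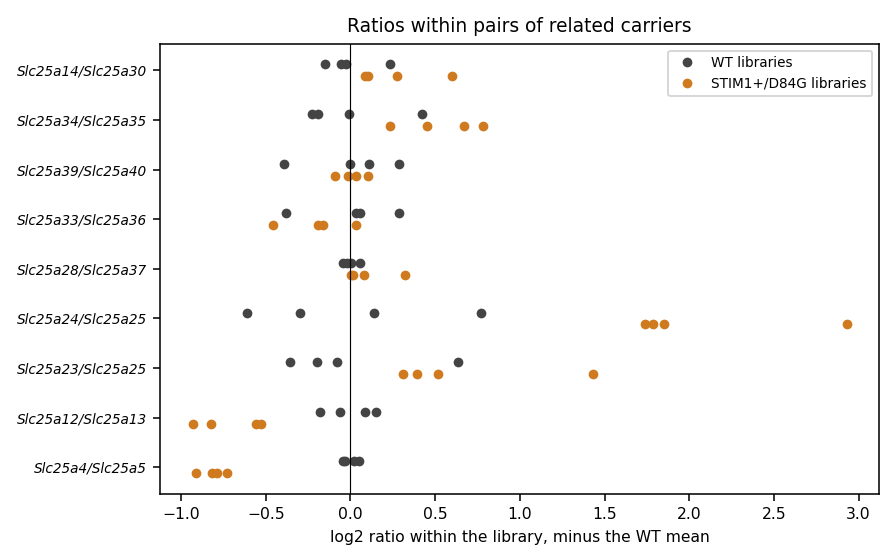
Points give the log2 ratio of 2 related carriers within each library minus the WT mean of that ratio, for WT (dark) and STIM1+/D84G (orange) libraries, in 9 of the 10 pairs (Slc25a22/Slc25a18, with libraries at 0, is not drawn). Slc25a4/Slc25a5 and Slc25a12/Slc25a13 lie to the left of all WT points and Slc25a24/Slc25a25 to the right, and the other 6 pairs overlap.

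Proteins of the same family without the SLC25 symbol, and genes that work with the carriers, were set beside them. Ucp2, an uncoupling protein known from immune cells among others, had 330.4, 251, 324 and 268 normalized counts in the WT libraries and 769, 972, 1129.8 and 1108 in the STIM1+/D84G libraries. Every STIM1+/D84G library was above every WT library, with a log2 fold change of 1.75 ± 0.13 (limma, adjusted p = 1.85e-06), a larger rise than that of any carrier that passed. Macrophage markers rose with it, as given for Slc25a24, and their part in the rise of Ucp2 was not tested. Ucp3, the uncoupling protein of muscle, and the outer membrane proteins Mtch1 and Mtch2 did not pass.

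Of 9 listed genes for the import of carriers, 3 fell and none rose, namely Timm22, the channel that inserts carriers into the inner membrane (-0.26 ± 0.042 on the log2 scale), and the small chaperones Timm8b (-0.26 ± 0.050) and Timm13 (-0.24 ± 0.045). Timm9, Timm10 and the receptor Tomm70a did not pass. Of 7 other inner membrane carriers 4 fell, including Mpc1 and Mpc2, which form the pyruvate carrier (log2 fold changes of -0.22 ± 0.072 and -0.32 ± 0.042), and Sfxn2 and Sfxn5 of the sideroflexins (-0.49 ± 0.092 and -0.55 ± 0.13). Sfxn1, a mitochondrial serine carrier, and Sfxn3 rose (0.49 ± 0.11 and 0.17 ± 0.061). These calls are from limma under the deposited scaling, where 24.4% of all genes were lower and 25.0% higher. The share lower was 33.3% for the import genes and 57.1% for the other inner membrane carriers. The 6 related lists, some described further on, hold 4, 9, 7, 6, 79 and 75 genes. With total-count scaling 133 of these genes were higher and 2 lower, against 61.4% of all genes higher and 4.93% lower.

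The enzymes of the NADH shuttles differed from each other. Of the glycerol phosphate shuttle, which needs no carrier, mitochondrial Gpd2 had 12027, 13168, 11252 and 12859 normalized counts in the WT libraries and 5479.9, 5333, 4719.8 and 4169 in the STIM1+/D84G libraries, far apart, with a log2 fold change of -1.33 ± 0.084 (limma, adjusted p = 7.44e-07). Cytosolic Gpd1 fell by 0.71 on the log2 scale (limma, adjusted p = 1.27e-05). In the malate-aspartate shuttle, served by Slc25a11 and Slc25a12, Mdh2 fell and Mdh1 rose (-0.17 ± 0.036 and 0.18 ± 0.055), and Got1 and Got2 did not pass. These values are those of the deposited scaling. Total-count scaling moved the median gene from 0.013 to 0.36, and a fall as small as that of Mdh2 turns above 0 under it.

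Under the deposited scaling, of 79 nuclear genes of oxidative phosphorylation 37 were lower (46.8%) and 3 higher, with a median log2 fold change of -0.12. Of 75 genes of the mitochondrial ribosome 26 were lower (34.7%) and 7 higher, with a median of -0.053. Over all genes 24.4% were lower and 25.0% higher, with a median of 0.013. Among all genes with a mean over 1000 normalized counts, 54.5% were lower and 16.7% higher, with a median of -0.16. No difference between these lists and the carriers was tested.

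The fiber markers moved too, with 3 of 6 lower and 2 higher, and 1 did not pass. The extremes were Myh4, the myosin of the fastest fibers, lower (-1.05 ± 0.16), and Myh7, the myosin of slow fibers, higher (1.31 ± 0.16). Their summed level was 5373370.0 to 5811700.0 for all 6 markers across WT libraries and 3201450.0 to 3644420.0 across STIM1+/D84G libraries. These sums are those of the deposited scaling, under which the totals of the STIM1+/D84G libraries were lower as well. Of 4 endothelial markers 2 fell, their sums overlapping. Of 3 markers of nerve and Schwann cells 0 passed, with a summed level of 2038 to 2666 across WT libraries and 1990.0 to 3369 across STIM1+/D84G libraries. Red cell markers rose in 3 of 4 and the lymphocyte markers in 2 of 2, the latter at 21.2 summed normalized counts or fewer. The part of these shifts in the changes of the carriers was not tested.

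Within each value of the column-name number, all 24 called carriers kept the sign of their change (2 WT against 1 STIM1+/D84G library, and 2 against 3). The size could differ, and for Slc25a10 the log2 ratio of the means was 0.097 in the former comparison and 0.63 in the latter. With the number as a term in the fit, 7 carriers were higher and 17 lower. The spread between libraries was modest, with a median coefficient of variation over 38 carriers of 5.72% in WT and 6.44% in STIM1+/D84G muscle. Slc25a25 had the highest in both, 26.6% and 30.7%.

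**Figure D5:**
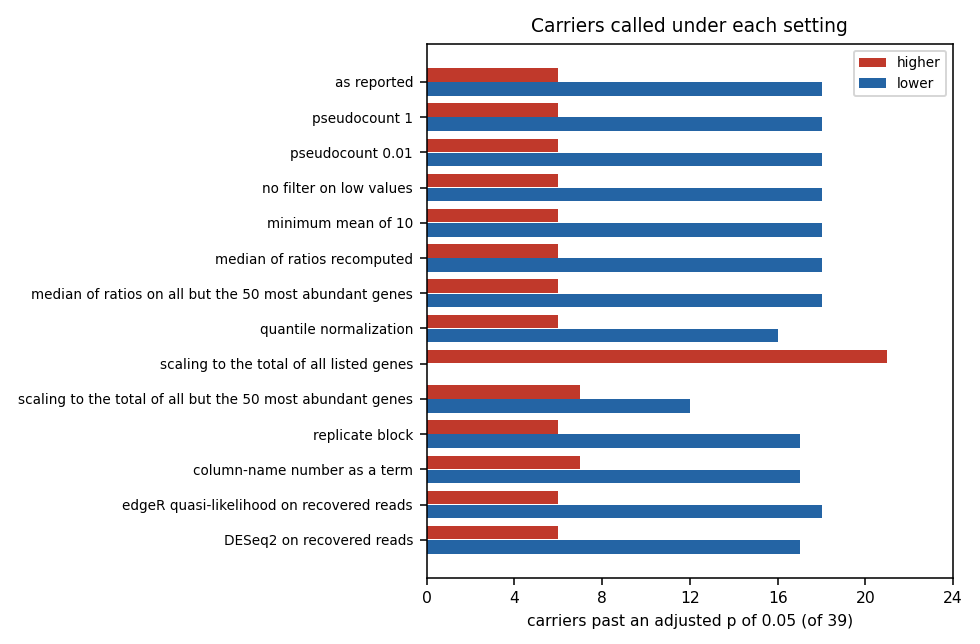
Bars give how many of the 39 carriers passed an adjusted p of 0.05 as higher (red) or lower (blue) under each setting other than leaving out a library. Among these the counts stay at 6 or 7 higher and between 16 and 18 lower except under total-count scaling, with 21 higher and 0 lower, and under scaling to the total without the 50 most abundant genes, with 7 higher and 12 lower.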

How the data were processed

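Poly(A) RNA of GST muscle from 4 WT and 4 STIM1+/D84G mice was sequenced by the authors as 50 bp paired-end reads from a stranded kit, while the labels name another kit. The genome build was mm10 per the labels. The aligner, counter and annotation version are not given in the sources used here. Although the deposited table is named for RPKM, its values are a signal that the authors made from read counts with a size factor for each library, and 100% of values came out as whole reads within 0.01. Columns with the authors' own fold ratio, log2 fold change, standard error and statistic (score) and p-values were deposited too and were not used.

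Values plus a pseudocount of 0.1 were fitted on the log2 scale with limma 3.58.1 (R 4.3.3) for genes with a mean of at least 0.5, adjusted over all 15433 genes. The fit was tested on simulated data. Recovered reads were tested with edgeR 4.0.16 and DESeq2 1.42.0 as alternatives. The alternatives also covered pseudocounts, filters, scalings, the replicate number as a block, the column-name number and leaving out each library. The count test of edgeR called 6 carriers higher and 18 lower. Replicate numbers come from the labels. Deviations of same-numbered libraries from their group means correlated at 0.213, 0.161, 0.150 and 0.123 over genes with a mean over 100, all above the minimum of 0.1. The numbers were therefore read as pairs in the block fit and the sign-flip test, but not in the main fit or the permutation test. Differently numbered libraries correlated between -0.299 and 0.371, 3 of 12 pairings above 0.1, and 2 of 8 libraries correlated best with their own number. These correlations do not establish that the libraries are pairs.

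The carriers and lists were chosen with earlier results of these data known. Every carrier is in the counts, and 1 is not reported here by itself. Values of each library are given for the 5 most abundant, the 6 rises and 8 largest falls that passed, and the members of the 10 pairs. Of related lists up to 4 genes that passed with the largest change were named, and of marker lists up to 2. Other genes named or given by library were chosen after their values were seen. Exon lengths and shared 50-base stretches are from GENCODE vM21, and promoters from RefSeq.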

Additional observations from a re-analysis of the deposited data

Results flagged for a closer look

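In 78 groups of 4 libraries (39 carriers in 2 genotypes), 5 held a library far from the other 3 by Dixon's criterion, which chance alone meets in about 1 group in 20. Slc25a25 had 1729 normalized counts in STIM1+/D84G library 4, the lowest, where the other 3 had between 3598 and 3779. Slc25a23 had 694 in WT library 4, the lowest, against 756 to 763, and 697 in STIM1+/D84G library 2, the highest, against 617 to 625. Slc25a37 had 876 in WT library 4, the highest, against 794 to 798. Slc25a18 had 10.8 in WT library 3, the highest, where the others had 0.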

How the results depend on the processing

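With the replicate number as a block, 6 carriers were higher and 17 lower, and the block ended the call of Slc25a30 only (limma, adjusted p = 0.0679). Leaving out 1 library at a time gave 5 to 6 carriers higher, 16 to 18 lower, a median of -0.15 to -0.069 on the log2 scale and a summed ratio of 0.803 to 0.818, and it changed the call of 4 carriers, Slc25a10, Slc25a18, Slc25a30 and Slc25a36. When each library was given the same total, 21 carriers were higher and 0 lower (limma; 0 also at an unadjusted p of 0.05, and not run with the count tools), against 61.4% of all genes higher and 4.93% lower, the median was 0.23, the summed ratio 1.03, and 133 genes of the related lists were higher and 2 lower, against 14 and 73 as deposited. Under that scaling the log2 fold change turned positive for 18 of the 27 carriers below 0, namely Slc25a16 (0.033), Slc25a42 (0.10), Slc25a11 (0.16), Slc25a51 (0.18), Slc25a44 (0.16), Slc25a29 (0.030), Slc25a23 (0.13), Slc25a36 (0.085), Slc25a30 (0.083), Slc25a37 (0.21), Slc25a46 (0.30), Slc25a39 (0.31), Slc25a17 (0.30), Slc25a28 (0.32), Slc25a38 (0.34), Slc25a32 (0.23), Slc25a40 (0.30) and Slc25a3 (0.35). Quantile normalization gave a summed ratio of 0.925, 33 related genes higher and 43 lower, and turned Slc25a11 (0.0061) and Slc25a3 (0.25) positive. Of carriers that passed in neither fit, it also turned Slc25a28 (0.0060), Slc25a39 (0.034) and Slc25a46 (0.027) positive and Slc25a13 (-0.057), Slc25a53 (-0.075), Slc25a35 (-0.078) and Slc25a14 (-0.35) negative. Scaling to the total without the 50 most abundant genes, chosen after seeing the data, gave a median of 0.0072, with 7 carriers higher and 12 lower, and turned 8 carriers that passed in neither fit positive. The cause of the shift between scalings was not tested. The other 9 settings changed the call of 2 carriers, Slc25a30 and Slc25a1. Depth limits what can be said of the 6 carriers with a mean under 100 normalized counts.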
